A study of Homo sapiens with 12 samples.

Results

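The 10 genes described here encode the 3 pocket proteins (RB1, RBL1 and RBL2), the 5 subunits of the MuvB core (LIN9, LIN37, LIN52, LIN54 and RBBP4) and the transcription activators MYBL2 and FOXM1. They were taken by name as the parts of these complexes, with no threshold on a measured value, although earlier results of these data were known, and all 10 had a row among the 19460 genes of the RNA table. Their levels were measured in T-47D, an established luminal human breast cancer line that expresses the oestrogen receptor. Each of the 2 assays, RNA sequencing and ATAC-seq (which finds accessible chromatin by where the Tn5 transposase cuts), had 3 control libraries from cells given the solvent DMSO and 3 from cells given 1 µM palbociclib, a drug that blocks the cyclin D kinases CDK4 and CDK6, with 24 h of treatment. The RNA samples are labelled wild type, and the labels name no genetic change in either assay. The ATAC libraries are labelled as biological replicates, whereas the RNA labels give replicate numbers only, so p-values for RNA measure the spread between these samples, which may be technical.

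Pocket proteins bind E2F transcription factors and hold their target genes down until cyclin-dependent kinases phosphorylate them, and RB1 is the best known target of CDK4 and CDK6. In resting cells RBL2 or RBL1 joins E2F4 or E2F5, a DP subunit and the MuvB core to form the DREAM complex, which represses cell cycle genes. In dividing cells the same MuvB core leaves the pocket protein, binds MYBL2 and later FOXM1, and then helps to switch on the genes of G2 and mitosis. LIN54 is the subunit that contacts DNA, at the cell cycle genes homology region (CHR), while E2F and DP bind a GC-rich core sequence.

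The bases before the transcription start of 6 of the genes are shown because they are where such elements would lie, and because these 6 run from the gene that changed most to those that did not pass the test. Each line gives the 250 bases before a start, 5′ to 3′ on the gene's strand, from RefSeq on GRCh38.p14, with matches to the motifs searched in capitals. The regions are chr20:43666864-43667113 for MYBL2 (plus strand), chr20:37095998-37096247 for RBL1 (minus strand), chr4:83010835-83011084 for LIN54 (minus strand), chr14:74084706-74084955 for LIN52 (plus strand), chr16:53434221-53434470 for RBL2 (plus strand) and chr19:35748326-35748575 for LIN37 (plus strand). The LIN54 start used is an internal start of the gene, 2107 bases from its outermost one.
MYBL2: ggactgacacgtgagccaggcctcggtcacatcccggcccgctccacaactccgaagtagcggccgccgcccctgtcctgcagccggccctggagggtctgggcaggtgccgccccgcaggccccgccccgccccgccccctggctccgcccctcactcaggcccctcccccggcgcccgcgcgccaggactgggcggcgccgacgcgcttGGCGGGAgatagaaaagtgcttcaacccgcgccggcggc
RBL1: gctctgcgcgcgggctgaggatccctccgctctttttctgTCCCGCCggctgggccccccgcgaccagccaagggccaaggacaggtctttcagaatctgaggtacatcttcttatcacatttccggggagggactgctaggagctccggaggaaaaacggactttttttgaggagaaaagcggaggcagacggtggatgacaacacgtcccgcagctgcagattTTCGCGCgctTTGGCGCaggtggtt
LIN54: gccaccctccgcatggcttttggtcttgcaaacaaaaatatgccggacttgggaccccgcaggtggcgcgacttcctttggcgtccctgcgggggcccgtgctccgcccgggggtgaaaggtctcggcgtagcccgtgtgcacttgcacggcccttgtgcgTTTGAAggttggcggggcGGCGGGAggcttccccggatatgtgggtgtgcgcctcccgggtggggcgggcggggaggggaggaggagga
LIN52: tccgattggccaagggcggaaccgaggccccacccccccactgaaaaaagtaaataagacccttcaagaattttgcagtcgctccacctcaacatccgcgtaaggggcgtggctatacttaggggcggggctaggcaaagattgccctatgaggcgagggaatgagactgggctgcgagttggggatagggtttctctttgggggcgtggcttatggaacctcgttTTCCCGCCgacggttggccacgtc
RBL2: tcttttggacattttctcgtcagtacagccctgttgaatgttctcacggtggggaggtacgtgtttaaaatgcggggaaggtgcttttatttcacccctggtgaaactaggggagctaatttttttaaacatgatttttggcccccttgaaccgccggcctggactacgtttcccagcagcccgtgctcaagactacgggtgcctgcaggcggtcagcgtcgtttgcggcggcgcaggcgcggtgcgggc
LIN37: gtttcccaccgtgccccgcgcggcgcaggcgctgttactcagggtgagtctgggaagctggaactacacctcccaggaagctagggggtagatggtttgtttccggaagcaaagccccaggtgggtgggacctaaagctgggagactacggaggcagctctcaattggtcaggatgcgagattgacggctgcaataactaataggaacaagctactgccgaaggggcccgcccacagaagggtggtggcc

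The motifs searched, on both strands, were the CHR (TTTGAA or TTCGAA) and an E2F core spelled as TTCCCGC, as TTGGCGC, in the form TTCGCGC or in the form TTGCCGC, with a further E2F core, GGCGGGA, added after the first search. The last one, read on the other strand, shares 6 letters with TTCCCGC, so a single stretch can match both. The line of MYBL2 holds GGCGGGA with its first base 39 bases before the start and no other match. RBL1 holds TTCGCGC at 25 and TTGGCGC at 15 bases before the start, and GGCGGGA on the other strand at 210 bases. LIN54 holds the CHR letters TTTGAA at 89 bases and GGCGGGA at 71 bases before this start. In LIN52 the match to TTCCCGC begins 24 bases before the start and overlaps GGCGGGA on the other strand. The lines of RBL2 and LIN37 hold none of these letters, although the windows searched below hold matches in both genes.

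Searched in windows from 250 bases before to 50 bases after each RefSeq start, 9 of the 10 genes had a window, and FOXM1 had none in the table. The only window of RB1 lies at an internal start, 172699 bases from the gene's outermost start, so the bases before that outermost start were not searched and RB1 counts below as a gene without a match. The CHR letters were in a window of 4 of the 9 genes (RBL2, LIN9, LIN37 and LIN54), against 19.5% of 27305 genes with a window. In RBL2 they lie 24 bases after the start, and in LIN37 in the window of a second start, so both genes that did not pass the RNA test held a match. The first E2F core was in 4 of the 9 genes (RBL1, LIN9, LIN52 and RBBP4), against 15.3% of all genes. The added core was in 7 of the 9 genes (RBL1, LIN9, LIN37, LIN52, LIN54, RBBP4 and MYBL2), against 18% of all genes. In LIN37 it lies in the window of the second start, 162 bases before that start. All LIN9 matches lie in windows of internal starts, 603 and 264 bases from its outermost start, whose own window held none. The windows of LIN54 also lie at internal starts, so the bases before its outermost start were not searched either. Counted per window of the same length, the shares over all 35116 windows were 16.4%, 13% and 15.4%. The 9 genes had 15 windows, and no share per window was computed for them. A gene with more windows has more chances of a match, so the counts per gene depend on this too. A match describes the letters and does not show a bound site.

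The RNA values are FPKM, a level corrected for gene length and library depth, and the RNA test used was limma on log2(FPKM + 1), a scale that understates the change of low genes. Libraries of the same treatment had a Pearson r of at least 0.9951 across genes, and libraries of different treatment had an r of at most 0.9711, where genes are not independent replicates. FPKM give no total count per library, and the counts in ATAC peaks ranged from 12830062 to 18250496 per library. The counting command names no option for read pairs, so these counts were taken as reads, and the number of fragments behind them may be lower. Of 9 luminal epithelial markers, 8 were higher with palbociclib (limma adjusted p under 0.05), against 20.9% of all genes tested. The summed level of the 9 markers was 5593 to 6118 FPKM with DMSO and 7516 to 8296 FPKM with palbociclib. Of 10 markers of basal epithelium, fibroblasts, leukocytes and endothelium, 3 had a row in the RNA table, with sums of 23.54 to 24.76 and 24.22 to 26.4 FPKM. TP63 and COL1A2 were under 0.5 FPKM in every library, and COL1A1 made up nearly all of that sum. The part of the luminal markers' rise in the results below was not tested.

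Of the 10 genes, 8 had lower RNA with palbociclib and none had higher RNA. The 8 were RB1, RBL1, LIN9, LIN52, LIN54, RBBP4, MYBL2 and FOXM1, and their falls ran from 1.38-fold for RBBP4 to 22.3-fold for MYBL2. RBL2 and LIN37 did not pass the test. Among all 15869 genes tested, 22.9% were lower and 20.9% were higher by limma at an adjusted p under 0.05. The median log2 change of the 10 genes was -0.88, against 0.00 over all genes tested. In bulk RNA, fewer cells that express a gene and less RNA per cell cannot be told apart.

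**Figure D1:**
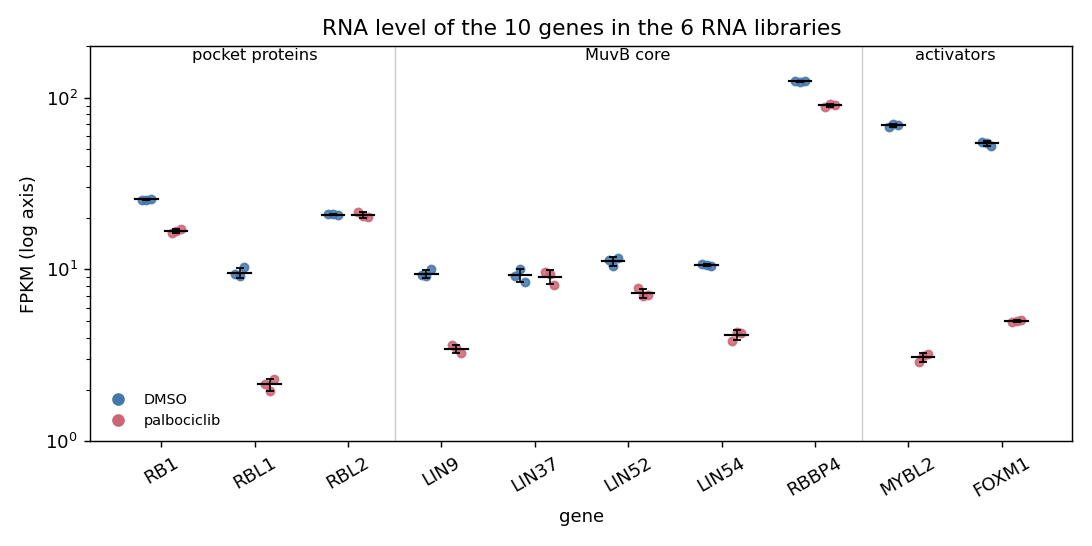
RNA level (FPKM, log axis) of the 10 genes by role in 3 DMSO (blue) and 3 palbociclib (red) libraries, where points are libraries, long lines are means and error bars are SD. MYBL2 falls from 67.44 to 70.31 FPKM down to 2.889 to 3.236 FPKM, while RBL2 and LIN37 overlap between treatments.

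Among the pocket proteins, RBL1 kept 22.3% of its control level, RB1 kept 65.6% and RBL2 did not pass the test. RBL1 (ENSG00000080839, chromosome 20, 36996349 to 37095997), which encodes p107, a pocket protein made mainly in dividing cells, stood at 9.373, 9.098 and 10.29 FPKM in DMSO replicates 1 to 3. It stood at 2.164, 1.951 and 2.305 FPKM in palbociclib replicates 1 to 3. All 3 treated libraries lay far below the lowest control. RBL1 thus fell 4.48-fold in mean FPKM, from 9.587 ± 0.625 to 2.14 ± 0.178 (SD, n = 3 per group), with a log2 change of -1.75 (SE 0.071) and a limma adjusted p of 2.84e-07.

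RB1 (ENSG00000139687, chromosome 13, 48303751 to 48481890), the retinoblastoma protein gene, measured 25.5, 25.5 and 25.68 FPKM with DMSO and 16.3, 16.81 and 17.19 FPKM with palbociclib. The control libraries were nearly equal and every treated library was below them. The treated mean was 65.6% of the control mean, with a log2 change of -0.58 (SE 0.038, limma adjusted p 6.22e-06). RBL2 (ENSG00000103479, chromosome 16, 53434471 to 53491648), which encodes p130, the pocket protein that prevails in resting cells, measured 21.04, 20.93 and 20.67 FPKM with DMSO. With palbociclib it measured 21.59, 20.42 and 20.12 FPKM, so that the groups overlapped. Its log2 change was -0.01, with a 95% interval from -0.11 to 0.08 and a limma adjusted p of 0.84.

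The make-up of pocket protein RNA differed between treatments. The sum of the 3 genes went from 56 ± 0.57 to 39.6 ± 0.44 FPKM. RBL1 made up 17.1% ± 0.94 of it with DMSO and 5.4% ± 0.42 with palbociclib, and RBL2 37.3% ± 0.68 and 52.3% ± 1.6. RB1 made up 45.6% ± 0.29 and 42.3% ± 1.4 (SD, n = 3 in each case). RBL2 was below RB1 in every control library and above it in every treated one, since the ratio of their FPKM was 0.825, 0.821 and 0.805 with DMSO and 1.32, 1.21 and 1.17 with palbociclib. The ratio of RBL2 to RBL1 was 2.24, 2.3 and 2.01 with DMSO and 9.98, 10.5 and 8.73 with palbociclib. The groups did not overlap for either ratio. For each of 10 ratios computed among these genes and their relatives, an exact permutation test (two-sided, 3 against 3) gave p = 0.1, the smallest it can give, and Benjamini-Hochberg adjustment over the 10 leaves 0.1. The pairs were chosen with earlier results of these data known. Each sets genes whose own changes differed, so these p-values add no support beyond the results for single genes.

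**Figure D2:**
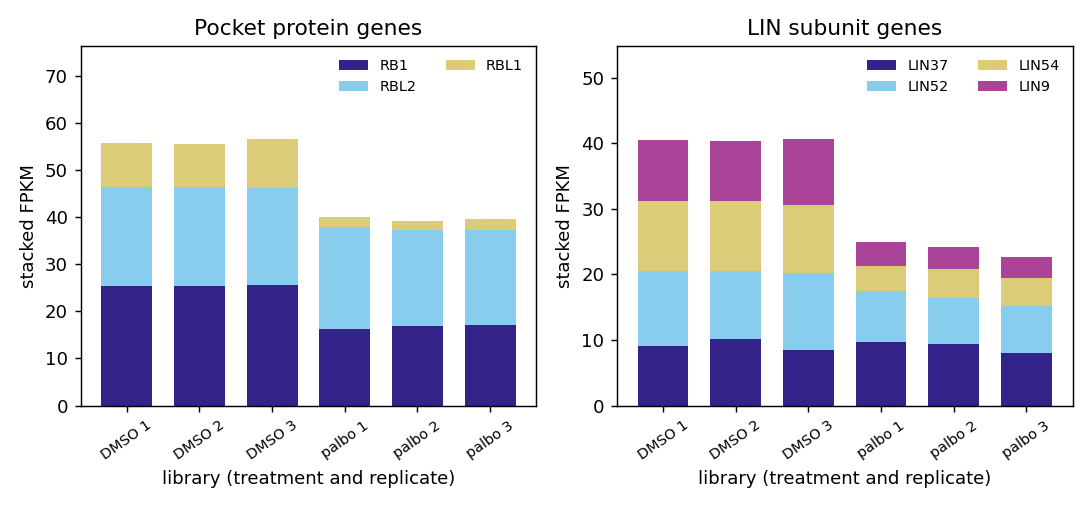
Stacked FPKM of the 3 pocket protein genes (left) and the 4 LIN subunit genes (right) in each RNA library, where a segment's height is that gene's FPKM. In the treated libraries RBL1 shrinks to 5.4% of the pocket protein sum on average, and LIN37 grows to 37.8% of the LIN sum.

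The genes of the MuvB core changed unequally. LIN9 and LIN54 fell 2.74-fold and 2.55-fold, LIN52 and RBBP4 fell 1.53-fold and 1.38-fold, and LIN37 did not pass the test. LIN9 (ENSG00000183814, chromosome 1, 226231149 to 226309767), a scaffold subunit that also binds MYBL2, measured 9.227, 9.13 and 10.03 FPKM with DMSO and 3.622, 3.471 and 3.258 FPKM with palbociclib. Its groups were far apart, with a log2 change of -1.23 (SE 0.062, limma adjusted p 1.24e-06), or 2.74-fold in mean FPKM. LIN54 (ENSG00000189308, chromosome 4, 82924603 to 83012941), the DNA-binding subunit, measured 10.74, 10.66 and 10.41 FPKM with DMSO. With palbociclib it measured 3.834, 4.337 and 4.292 FPKM, all below every control. The log2 change of LIN54 was -1.17 (SE 0.059, limma adjusted p 1.17e-06), or 2.55-fold in mean FPKM.

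LIN52 (ENSG00000205659, chromosome 14, 74084956 to 74201493), whose phosphorylation by DYRK1A lets the core bind RBL2 or RBL1, measured 11.36, 10.43 and 11.7 FPKM with DMSO and 7.789, 6.959 and 7.078 FPKM with palbociclib. The groups did not overlap, and the treated mean was 65.2% of the control mean (log2 change -0.56, SE 0.063, limma adjusted p 0.000175). RBBP4 (ENSG00000162521, chromosome 1, 32651208 to 32686211), a histone chaperone that also serves in other chromatin complexes, was the most abundant of the 10 genes. It measured 124.5, 122.6 and 125.6 FPKM with DMSO and 88.1, 91.44 and 90.83 FPKM with palbociclib. Every treated library was lower, with a mean of 72.6% of the control (log2 change -0.46, SE 0.029, limma adjusted p 5.82e-06).

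LIN37 (ENSG00000267796, chromosome 19, 35748576 to 35754519), a subunit needed for repression by DREAM, measured 9.129, 10.11 and 8.464 FPKM with DMSO. With palbociclib it measured 9.639, 9.451 and 8.071 FPKM, and the libraries of the 2 groups were interleaved. The log2 change was -0.03, with a 95% interval from -0.21 to 0.16 and a limma adjusted p of 0.823. The 4 LIN subunits were at nearly the same level in the controls, with group means of 9.23 to 11.2 FPKM, and spread over 3.45 to 9.05 FPKM after treatment. LIN37 made up 22.8% ± 2.1 of their summed FPKM with DMSO and 37.8% ± 1.9 with palbociclib, LIN9 23.4% ± 1.1 and 14.4% ± 0.12, and LIN54 26.2% ± 0.5 and 17.4% ± 1.8 (SD, n = 3). The share of LIN52 moved less, from 27.6% ± 1.5 to 30.4% ± 1.4. The ratio of LIN37 to LIN9 was between 0.844 and 1.11 in the controls and between 2.48 and 2.72 in the treated libraries.

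The activators fell most. MYBL2 (ENSG00000101057, chromosome 20, 43667114 to 43716482), which encodes B-MYB, the MYB factor that joins MuvB in S phase, measured 67.44, 70.31 and 69.04 FPKM with DMSO. With palbociclib it measured 2.889, 3.131 and 3.236 FPKM. The treated mean was 4.48% of the control mean, a log2 change of -4.10 (SE 0.047, limma adjusted p 3.9e-10), and only 2 of the 15869 genes tested had a more negative change. In the controls MYBL2 exceeded 91% of the genes tested, and in the treated libraries 29.9%.

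FOXM1 (ENSG00000111206, chromosome 12, 2857680 to 2877174), the forkhead factor that drives genes of G2 and mitosis, measured 55.42, 54.48 and 52.45 FPKM with DMSO and 4.915, 5.028 and 5.053 FPKM with palbociclib. The treated libraries were close together and far below the controls, with a mean of 9.24% of the control mean. FOXM1 fell 10.8-fold in mean FPKM (log2 change -3.20, SE 0.041, limma adjusted p 4.11e-10), and ranked 45 among all genes from the most negative change. The ratio of MYBL2 to LIN9, the subunit that binds it, went from 7.3 ± 0.41 to 0.898 ± 0.098 (SD, n = 3). MYBL2 was thus above LIN9 in every control library and below it in every treated one.

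Of the 10 genes, 5 (MYBL2, FOXM1, RBL1, LIN9 and LIN54) were lower by at least 1 on the log2 scale and past the test, as were 482 or 3.04% of all genes tested. The groups did not overlap, with palbociclib lower, for 8 of the 10 genes and for 28.2% of all genes tested. In the authors' deposited table, made from the same libraries, the same 8 of the 10 genes were lower at an adjusted p under 0.05, against 20.3% of the 19080 genes with an adjusted p there. The authors' deposited table gives log2 fold changes of -4.48 for MYBL2, -3.44 for FOXM1, -2.16 for RBL1, -1.46 for LIN9 and -1.35 for LIN54. In the authors' deposited table RBL2 is at -0.01 (adjusted p 0.878) and LIN37 at -0.03 (adjusted p 0.88). Centring each library on its median gene moved the median change of all genes to 0.106 (log2). Under it RBL2 was at 0.09 and LIN37 at 0.08, both still not past the test, and the other 8 genes were still lower.

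The order of the 10 levels changed with treatment. With DMSO, RBBP4 was highest, followed by MYBL2, FOXM1, RB1 and RBL2, and then by LIN52, LIN54, RBL1, LIN9 and LIN37. LIN52 overlapped LIN54 across libraries, and RBL1, LIN9 and LIN37 overlapped each other. With palbociclib the order was RBBP4, RBL2, RB1, LIN37, LIN52, FOXM1, LIN54, LIN9, MYBL2 and RBL1, and no neighbours in it overlapped.

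The genes of the E2F and DP families differed in direction. Of 10 E2F and DP genes, 6 fell, 1 rose and 3 did not pass the limma test, with a median log2 change of -0.56. Among all genes tested, 22.9% fell and 20.9% rose. E2F1, the classic activator held by RB1, fell by 2.91 on the log2 scale, to a mean of 3.336 ± 0.164 FPKM against 31.49 ± 1.03 in the controls (limma adjusted p 1.33e-09). The repressors E2F7 (log2 -2.66) and E2F8 (log2 -2.21) and the activator E2F2 (log2 -1.97) also fell, as did the DP subunit TFDP1 (log2 -0.89). E2F6 fell by 0.24 on the log2 scale, but not past the test under quantile normalization or median centring (limma adjusted p 0.0783 and 0.0734).

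E2F4 and E2F5, which join RBL2 and RBL1 in DREAM, were not among those that fell. E2F4 measured 30.06, 31.56 and 32.18 FPKM with DMSO and 31.72, 31.66 and 32.14 FPKM with palbociclib. The groups overlapped, with a log2 change of 0.03 (limma adjusted p 0.61). It was at 0.13 and past the test only under median centring (limma adjusted p 0.0213). E2F5 rose by 0.21 on the log2 scale, with means of 15.85 ± 0.214 and 18.51 ± 0.636 FPKM (limma adjusted p 0.00385). E2F3 (log2 -0.13) and TFDP2 (log2 -0.06, overlapping groups) did not pass the test. The ratio of E2F4 to E2F1 was 0.994 ± 0.048 with DMSO and 9.56 ± 0.43 with palbociclib (SD, n = 3).

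Of 12 tested cyclin, kinase and phosphatase genes that act on pocket proteins or LIN52, 9 fell, 1 rose and 2 did not pass the limma test, with a median log2 change of -0.50. The shares over all genes tested were 22.9% for falls and 20.9% for rises. CCND2 had no row that could be tested. CCND1, the cyclin partner of CDK4 and CDK6, rose, with means of 96.75 ± 2.25 FPKM under DMSO and 202.7 ± 3.52 FPKM under palbociclib (limma adjusted p 2.89e-08). CCNA2 (log2 -3.73) and CCNE2 (log2 -3.65), cyclins that activate CDK2, fell most, followed by CDK2 itself (log2 -1.31) and by CCNE1, with means of 6.319 ± 0.399 and 2.648 ± 0.159 FPKM. CCND3 (log2 -0.74) and CDK4 (log2 -0.44) fell less, and CDK6 was at 0.4934 ± 0.0803 and 0.5771 ± 0.0433 FPKM and did not pass the test. Of the catalytic subunits of protein phosphatase 1, which dephosphorylates pocket proteins, PPP1CA (log2 -0.55) and PPP1CC (log2 -0.46) fell and PPP1CB (log2 -0.04) did not pass the test. DYRK1A, the kinase of LIN52, fell by 0.21 on the log2 scale, but not past the test under quantile normalization or median centring (limma adjusted p 0.0913 and 0.128).

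Of 10 relatives and corepressors, 4 fell, 2 rose and 4 did not pass the limma test, with a median log2 change of -0.07. Over all genes tested, 22.9% fell and 20.9% rose, so these counts are not far from those shares. The relatives of MYBL2 had smaller changes than its own, in both directions. MYBL1 (A-MYB) fell by 0.66 on the log2 scale, with means of 54.73 ± 1.11 and 34.28 ± 1.96 FPKM (limma adjusted p 8.1e-06). MYB was higher with palbociclib by 0.39, with means of 13.78 ± 0.258 and 18.38 ± 0.574 FPKM (limma adjusted p 0.00014). MYBL1 RNA was below MYBL2 in the controls, with a ratio of 0.794 ± 0.0063, and above it after treatment, with a ratio of 11.1 ± 0.53 (SD, n = 3). RBBP7, the close relative of RBBP4, was also higher, by 0.32, with means of 532 ± 22.7 and 662.2 ± 26.6 FPKM (limma adjusted p 0.000478). Among chromatin repressors that pocket proteins recruit, SUV39H1 (log2 -1.72), SIN3A (log2 -0.26) and HDAC2 (log2 -0.22) fell, HDAC2 not past the test under median centring (limma adjusted p 0.0563). HDAC1 (log2 -0.04), SIN3B (log2 0.08), ARID4A (log2 -0.10) and KDM5A (log2 0.08) did not pass the test.

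The known target genes of these complexes fell without exception among those listed, in limma at an adjusted p under 0.05. All 30 G1/S genes, which E2F factors control, fell, with a median log2 change of -2.45 and a range from -5.38 to -0.68. RRM2, a ribonucleotide reductase subunit, fell from 106 ± 2.45 to 1.57 ± 0.139 FPKM, and TYMS, thymidylate synthase, from 56.21 ± 2.28 to 2.755 ± 0.0987 FPKM. All 35 G2/M genes, which MuvB with MYBL2 and FOXM1 controls, also fell, with a median of -2.94 and a range from -3.86 to -1.35. AURKB, a mitotic kinase, fell from 43.07 ± 1.94 to 2.034 ± 0.156 FPKM, and NUSAP1, a spindle protein, fell by 3.76 on the log2 scale. The G1/S and G2/M lists are of genes long known to depend on the cell cycle, and were chosen with earlier results of these data known. Among all genes tested, 22.9% were lower. CCNE1, CCNE2 and CCNA2 are also counted among the cyclin, kinase and phosphatase genes above. In their promoter windows, the first E2F core was in 20 of 25 G1/S genes and in 10 of 30 G2/M genes, and the CHR letters were in 3 of 25 and 22 of 30.

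**Figure D3:**
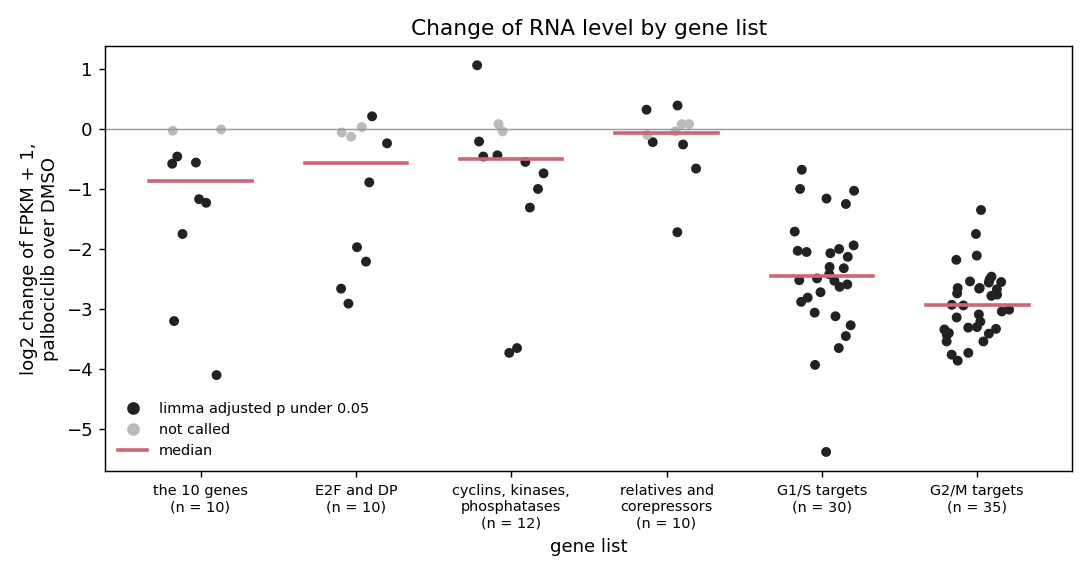
Log2 change of FPKM + 1, palbociclib over DMSO, for each tested gene of 6 lists, with genes past the limma test in black, others in grey and the list's median as a red line. The G1/S and G2/M targets all lie below 0, with medians of -2.45 and -2.94, and the 10 genes span -4.10 to -0.01.

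Genes most like a member were sought by the root mean square difference of their change over the 6 libraries, on the log2 scale, among 12934 genes. FAM111B (0.068) and TYMS (0.137) were nearest to MYBL2, and KIF2C (0.052) and PRC1 (0.058) to FOXM1. The nearest to RBL1 were CENPL (0.051) and MASTL (0.062), and the nearest to RBL2 were LPCAT1 (0.012) and THUMPD1 (0.014). These distances are descriptions over libraries that share treatment.

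In the deposited ATAC peak set of 38121 peaks, 15 lay within one of the genes or up to 10 kb from it, around 7 of the 10 genes, and none were listed for RBL2, LIN9 or LIN54. Only MYBL2 and LIN37 had a peak within 1 kb of a RefSeq start, whereas 44% of the 10994 genes tested in RNA that had a promoter window had one. For the 10 genes the outermost start was searched as well, and for the other genes only starts with a window. Of the 15 peaks, 3 were less and 3 were more accessible with palbociclib by edgeR's quasi-likelihood test, against 6.46% and 5.41% of all peaks. Only the peak at the MYBL2 start and the peak within RBL1 passed under every alternative tried.

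The peak over the MYBL2 start (chr20:43666501-43667309) contains the 250 bases of MYBL2 printed above. It held 47.3, 46.5 and 43 counts scaled to library size (CPM) with DMSO and 32.1, 30.6 and 34.6 CPM with palbociclib, so every treated library was below every control. The log2 change was -0.49 (edgeR adjusted p 1.35e-06). The peak over the LIN37 start (chr19:35748253-35748791) likewise contains the printed bases of LIN37. It held 121, 116 and 122 CPM with DMSO and 116, 115 and 114 CPM with palbociclib, with a log2 change of -0.05 that did not pass the test (edgeR adjusted p 0.55). The LIN37 groups met at 116 CPM.

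Within RBL1, a peak 87593 bases from its start (chr20:37007845-37008404) held 4.32, 4.22 and 5 CPM with DMSO and 8.33, 9.79 and 9.33 CPM with palbociclib. It was more accessible in every treated library (log2 1.02, edgeR adjusted p 6.02e-06), while the RNA of the gene fell. A peak within LIN52 (chr14:74108224-74108509), which also lies over LOC105370563, was higher with palbociclib, at 5.17 ± 1.1 against 3.22 ± 0.7 CPM (edgeR adjusted p 0.0136, log2 0.69). With DESeq2, however, its adjusted p was 0.0822. It also lost the call without DMSO replicate 3, palbociclib replicate 1 or palbociclib replicate 2 (edgeR adjusted p 0.126, 0.0503 and 0.106). A peak within MYBL2 (chr20:43681281-43682170) was at 15 ± 3.7 against 11.2 ± 0.37 CPM (edgeR adjusted p 0.0231, log2 0.42). Palbociclib replicate 2, at 10.7 CPM, lay below the controls, and the adjusted p with DESeq2 was 0.106. The call was lost without any single library except palbociclib replicate 2, without which the log2 change was 0.61 (edgeR adjusted p 0.066 to 0.189 for the other 5 libraries).

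Near LIN37, peaks in the neighbouring genes IGFLR1 (chr19:35740349-35741124, log2 -0.18, edgeR adjusted p 0.0302) and PROSER3 (chr19:35757640-35758623, log2 -0.20, edgeR adjusted p 0.00612) fell. The first was not past the test with DESeq2 (adjusted p 0.0661), nor without DMSO replicates 1 or 3 or palbociclib replicates 2 or 3 (edgeR adjusted p 0.0675 to 0.136), and the second not without DMSO replicate 1 (edgeR adjusted p 0.0686). The remaining 9 peaks did not pass the test, the start peak of LIN37 among them. These 9 were in or near RB1 (also over LPAR6), LIN37, LIN52 (also over LOC105370563), RBBP4, MYBL2 and FOXM1. The peak near RBBP4 lay over SYNC, 43667 bases from an RBBP4 start, and the other uncalled peak near LIN37 lay over U2AF1L4 and PSENEN. The 2 peaks nearest FOXM1 lay over ITFG2 (also TEX52) and over RHNO1, and changed by -0.33 and -0.18 (log2, edgeR adjusted p 0.085 and 0.294).

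**Figure D4:**
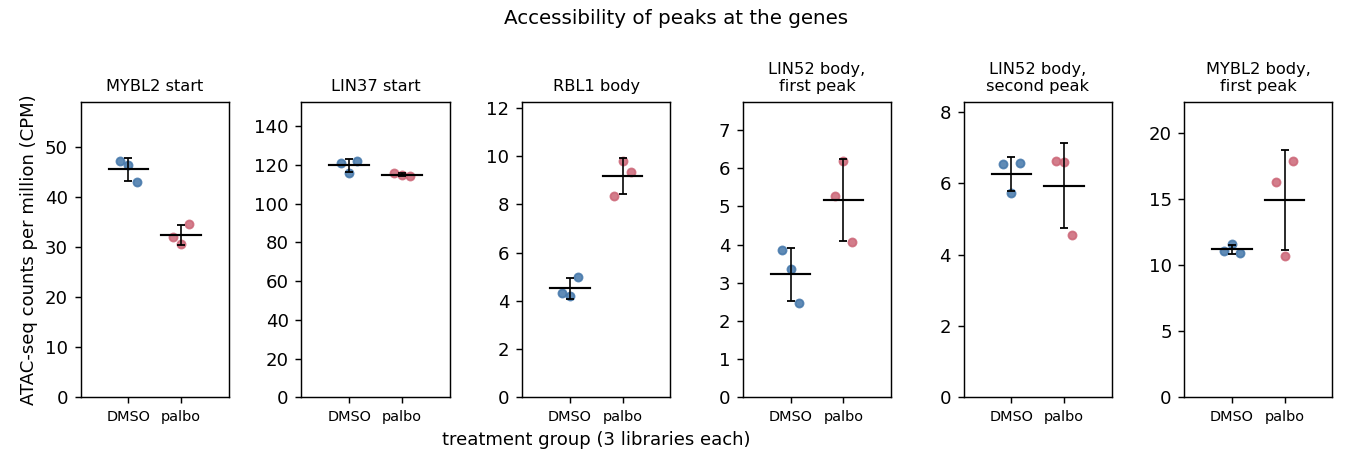
ATAC-seq counts scaled to library size (CPM, each axis from 0) of 6 peaks at MYBL2, LIN37, RBL1 and LIN52 in 3 DMSO (blue) and 3 palbociclib (red) libraries, with mean lines and SD bars. The MYBL2 start peak goes from 45.6 ± 2.3 to 32.4 ± 2 CPM and the RBL1 peak from 4.52 ± 0.42 to 9.15 ± 0.75 CPM, without overlap.

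Splicing tables listed 121 events in the 10 genes, and 36 of them met both filters, on the number of reads and on the share of the minor form, and were tested here. None passed edgeR's quasi-likelihood test at an adjusted p under 0.05, which 0.35% of all tested events did, and 2 of the 36 had an unadjusted p under 0.05, against 8.53% of all tested events. In the authors' deposited table from rMATS, 3 of the 121 events had an FDR under 0.05, against 2.47% of all events listed. No event of MYBL2 (8 listed) or RBBP4 (7 listed) met both filters.

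The event with the smallest p was a LIN9 exon of 105 bases (chr1:226295842-226295946), included at levels of 0.872, 0.764 and 0.797 with DMSO and 0.92, 0.936 and 0.943 with palbociclib. All treated libraries were higher, by 0.122 on average, with an edgeR unadjusted p of 0.00346 and an adjusted p of 0.225, while the authors' deposited table gives an FDR of 0.00413. Reads that skipped the exon numbered 14, 32 and 25 in the controls and 4, 3 and 3 in the treated libraries, in which LIN9 RNA was also lower. An RBL1 exon of 65 bases, not a multiple of 3 (chr20:37067233-37067297), had levels of 0.883, 0.837 and 0.913 with DMSO and 0.927, 1 and 1 with palbociclib. Its groups did not overlap, but the edgeR adjusted p was 0.485 (unadjusted 0.0374), and the FDR in the authors' deposited table is 0.00508. In 2 treated libraries none of 36 and 29 reads skipped this exon, which allows a skipping share of up to 8.33% and 10.3% of counted reads, for counting error only.

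FOXM1 is known for 2 alternative exons, Va and VIIa, whose use sets its isoforms, and exons of their lengths were among its events, chosen here after their values were seen. The 45-base exon (chr12:2865355-2865399), the length of Va, was included at 0.876, 0.845 and 0.865 with DMSO and 0.974, 0.844 and 0.898 with palbociclib. The 114-base exon (chr12:2861299-2861412), the length of VIIa, was included at 0.052, 0.029 and 0.034 and at 0.014, 0.139 and 0.028. Its treated levels rest on 1, 8 and 1 reads that included it and 32, 23 and 16 that skipped it. In both groups the first exon was thus mostly included and the second mostly skipped, and neither exon passed the test (edgeR adjusted p 0.807 and 0.841). A further 61-base exon (chr12:2864885-2864945), listed with 2 sets of flanking exons, was included at means of 0.039 and 0.062 with DMSO and 0.057 and 0.061 with palbociclib (edgeR adjusted p 0.879 and 0.975). In the second listing the treated libraries held only 1, 0 and 2 reads with the exon and 7, 6 and 11 without it. That listing met the read filter through the controls, so its test cannot say whether inclusion changed.

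An alternative 3′ splice site of FOXM1 (chr12:2864683-2864755) has an FDR of 0.025 in the authors' deposited table, on 1 to 23 reads per library, too few to be tested here. Another, at chr12:2872096-2872247, had mean inclusion levels of 0.617 ± 0.042 and 0.684 ± 0.079 (edgeR adjusted p 0.801). In the other genes the events with the smallest p had adjusted p of 0.788 for LIN54, 0.866 for RBL2, 0.88 for LIN37, 0.92 for LIN52 and 0.98 for RB1 by edgeR, with overlapping groups in each. Those of LIN54 (0.696 ± 0.066 and 0.599 ± 0.121), LIN37 (0.387 ± 0.077 and 0.322 ± 0.055) and RB1 (0.481 ± 0.045 and 0.47 ± 0.019) were listed as mutually exclusive exons. The rest were a retained intron of RBL2 (0.204 ± 0.024 and 0.225 ± 0.025) and a 3′ splice site of LIN52 (0.935 ± 0.025 and 0.95 ± 0.038), as mean inclusion with DMSO and palbociclib (SD, n = 3). Whether exons listed as mutually exclusive do exclude each other was not tested, so those levels do not give shares of isoforms.

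**Figure D5:**
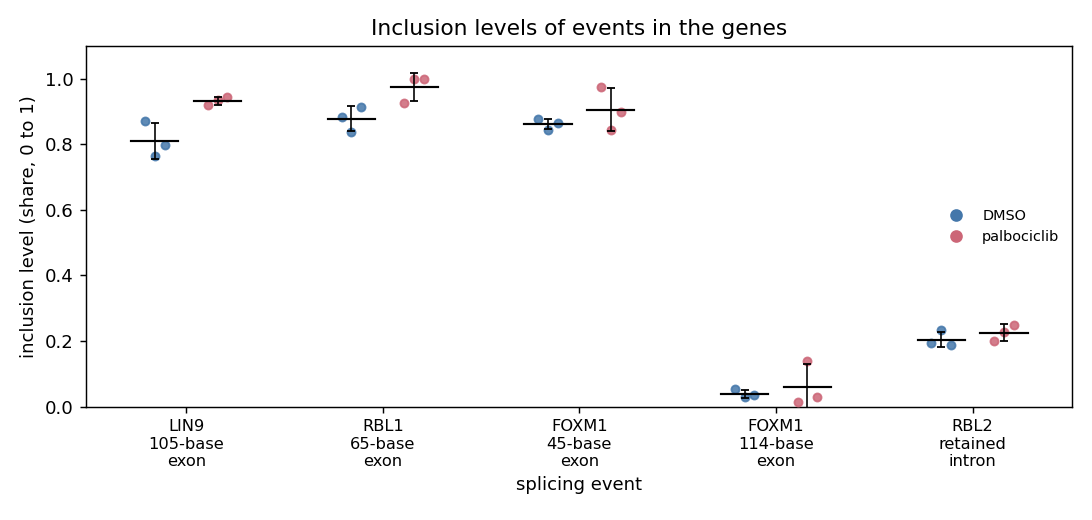
Inclusion level (share from 0 to 1) of 5 splicing events in LIN9, RBL1, FOXM1 and RBL2 in 3 DMSO (blue) and 3 palbociclib (red) libraries, with mean lines and SD bars. The LIN9 exon sits at 0.764 to 0.872 with DMSO and at 0.92 to 0.943 with palbociclib, and the FOXM1 and RBL2 events overlap between groups.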

How the data were processed

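RNA was sequenced in 6 and ATAC-seq in 6 T-47D libraries, 3 per treatment, grouped by their labels. The authors deposited FPKM per gene and library, without a stated depth. A second table deposited by the authors gives a mean normalized count (taken as a signal value), log2 fold changes, standard errors, a statistic used as a score and p-values from DESeq2. Peak counts were made by the authors with featureCounts 2.0.6 over 1 peak set, per the file headers, and the splicing tables hold the authors' inclusion and skipping counts, inclusion fractions, p-values and FDR. The submitters' processing notes name STAR 2.7.10b, Salmon 1.10.2, DESeq2 1.44.0, Bowtie2 2.5.4-6, MACS3 3.0.3-0 and the builds GRCh38 and hg38, with no role or order. The rMATS version and the strand used in counting are not given in the sources used here.

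RNA was tested with limma 3.58.1 (R 4.3.3) with an intensity trend on log2(FPKM + 1), over genes with a mean of at least 0.5 FPKM. Peaks were tested with edgeR 4.0.16 (quasi-likelihood, TMM, filterByExpr). Splicing was tested with edgeR on the counts of both forms, with a term per library, where an event averaged 20 reads or more per library and its minor form held 5% or more. Benjamini-Hochberg adjustment ran over all features (within event type for splicing), and calls needed an adjusted p under 0.05. Each test was tested on simulated data. For splicing these were retained introns only, and no other event type was simulated. The splicing test recovered 26 of 50 events moved by -1 in log2 odds and 19 of 50 moved by 1. It recovered 36 of 50 moved by -2 and 45 of 50 moved by 2. Starts and promoter windows came from RefSeq. The 10 genes and the gene lists were chosen with earlier results of these data known. Named were the 10 genes, all members of lists of 13 genes or fewer, the 3 largest changes of longer lists, the 2 genes most like each of 4 members, start peaks and called nearby peaks, each gene's splicing event of smallest p, and events past the threshold in the authors' table. Alternatives covered the pseudocount, filters, scalings, DESeq2 1.42.0, a replicate block and leaving out each library.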

Additional observations from a re-analysis of the deposited data

How the results depend on the processing

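The 8 lower genes were lower and past the test in all 12 RNA alternatives, and all listed G1/S and G2/M genes were too. RBL2 and LIN37 passed the test in none, and their small changes turned positive under quantile normalization (0.07 for both) and median centring (0.09 and 0.08). Leaving out single libraries gave -0.04 to 0.01 for RBL2 (positive without palbociclib replicate 3) and -0.08 to 0.05 for LIN37 (0.03 without DMSO replicate 2 and 0.05 without palbociclib replicate 3). Over all genes, 3628 were lower and 3312 higher, against 2401 and 5729 under median centring and 2857 and 4588 under quantile normalization. Median centring gave 2 higher E2F and DP genes in place of 1, and positive values for TFDP2 (0.04), PPP1CB (0.06), HDAC1 (0.06) and ARID4A (0.01). Quantile normalization gave 0.02 for TFDP2 and 0.003 for HDAC1. With single libraries left out, E2F4 ranged from -0.001 to 0.05 (lowest without DMSO replicate 1) and TFDP2 from -0.15 to 0.02 (highest without DMSO replicate 2). KDM5A passed the test at 0.18 under both scalings and ARID4A at -0.16 without palbociclib replicate 1.

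Over all peaks, 2464 were lower and 2061 higher, against 1533 and 981 with DESeq2 and 2030 and 2573 with scaling by library totals only, and 1557 to 2176 and 1103 to 1874 with single libraries left out. Of the 15 peaks at the genes, 1 to 3 were lower and 1 to 2 higher with a library left out (1 lower without DMSO replicate 1, 1 higher without DMSO replicate 3 or palbociclib replicate 1), and 1 was higher with DESeq2. The 4 other called peaks lost their calls with DESeq2 or with a single library left out. An RB1 peak ranged from -0.06 to 0.30, the second LIN52 peak from -0.16 to 0.08, and the ITFG2 peak passed the test at -0.43 without DMSO replicate 3 (edgeR adjusted p 0.0464).

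Over all splicing events, 39 were lower and 92 higher, against 16 and 47 without the filter on the minor form and 12 to 48 and 53 to 83 with single libraries left out. The correlation of same-numbered deviations from group means was low, at -0.005 to 0.106 in RNA and -0.028 to 0.042 in ATAC. In RNA, numbers 1 and 3 gave the highest values (0.106 and 0.088), against -0.139 to 0.051 for unlike numbers. Not every library correlated best with its own number, so whether replicates were paired stays unsettled. With a replicate block, 92 splicing events were lower and 161 higher, and the block changed no RNA, peak or splicing call of the 10 genes. No event of the 10 genes was called in any alternative. Log2 odds of inclusion changed sign in leave-one-out fits for the RB1 event (-0.20 to 0.04, with 0.001 without palbociclib replicate 3) and for FOXM1 exons of 114 bases (-0.84 to 1.42) and 61 bases (-1.08 to 1.27 and -0.16 to 0.82). Counting the added core, 7 of the genes held an E2F core in place of 4. The cause of these shifts was not tested. FPKM without counts leave RNA depth unknown, and an absence of splicing calls does not show that inclusion was equal.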
